A study of Mus musculus with 15 samples.

Results

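Inflammasomes are cytosolic protein complexes with which myeloid cells respond to microbes and to damage. A sensor protein binds or detects its trigger, most sensors recruit the adaptor ASC, and the complex activates caspase-1, which cleaves pro-interleukin-1β, pro-interleukin-18 and gasdermin D. The released end of gasdermin D opens pores in the plasma membrane, and in a separate branch caspase-11, encoded in the mouse by Casp4, binds bacterial lipopolysaccharide and cleaves gasdermin D itself. In the brain these genes are studied mainly in microglia, the resident macrophages, and in leukocytes that enter from blood.

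The genes described here are 10 members of this machinery, chosen by name from 38924 genes listed. They are the sensors Nlrp3, Nlrp1b and Mefv, the sensor Nlrc4 with the NAIP proteins Naip2 and Naip5 that bind its ligands, the adaptor Pycard, and the effectors Casp1, Casp4 and Gsdmd. Each name matched 1 gene in every library, and all 10 passed the filter on low counts that left 14967 genes.

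The libraries came from wild-type C57BL/6J males aged 12 months that ate either a control chow diet (CD) or, from 2 months of age, a western diet (WD). CD11b+ CD3e- cells were sorted from perfused brains, without olfactory bulb and cerebellum, into a CD45hi and a CD45lo fraction, of which the CD45lo fraction is the gate used for microglia. There were 4 libraries of CD CD45hi cells, 4 of CD CD45lo cells, 3 of WD CD45hi cells and 4 of WD CD45lo cells, each poly(A) RNA-seq from a similar number of sorted cells, and they are listed below in the order of replicate 1 to 4. The labels do not number the mice, while the study describes the deposited counts as given per animal, and the 21 pairs of replicates differed by more than counting noise (chi-square per degree of freedom 20.6 to 135.2).

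A library held 11951412 to 17912272 expected counts, the estimated number of reads that RSEM assigns to a gene, so that 3 counts correspond to 0.156 to 0.282 cpm, counts scaled to a common library size. All levels below are cpm after TMM normalization (edgeR) unless TPM, a level per transcript length, is named. Mitochondrial genes took 17.7 to 20.5% of counts in CD45hi libraries and 7.99 to 10.9% in CD45lo libraries. CD CD45hi replicate 4 and WD CD45hi replicate 1 stood apart from the other CD45hi libraries on the second principal component. The summed level of 8 microglial markers was 5670 to 6935 cpm in CD45hi and 11950 to 15260 cpm in CD45lo libraries, and that of 8 neutrophil markers 693 to 3392 against 79.0 to 690.0 cpm. For 7 monocyte markers the sums were 402 to 1051 against 29.6 to 138.7 cpm, for 6 markers of border-associated macrophages 765 to 2715 against 65.6 to 241.7 cpm, and for 8 T and NK cell markers 12.9 to 155.3 against at most 0.594 cpm. Ptprc, which encodes CD45, was called higher in CD45hi cells on both diets (log2 fold change 1.15 and 1.55, edgeR glmTreat), and Itgam, which encodes CD11b, was not called (-0.24 and -0.18). The CD45hi fraction is therefore described here by its gate and not as 1 cell type. In such bulk samples, fewer cells of a type and less RNA per cell cannot be told apart.

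Naip2 and Naip5 belong to a family of near-identical neighbours on chromosome 13, and some of their reads cannot be assigned to 1 gene. Of the 75-base windows of their GENCODE M21 transcripts, 23.8% of those of Naip5 and 10.7% of those of Naip2 also occur in another gene, all of them Naip genes or a Naip pseudogene. Nlrp1b shares 0.445% of its windows with Nlrp1a, and the other 7 members share none. The expected counts were fractional in 15 of 15 libraries for both Naip genes, in 12 for Casp4 and in 11 for Nlrp1b. The longest run of coding sequence shared by a coding transcript of Naip2 and one of Naip5 is 140 bases, longer than a read. Its first 120 bases are shown, since a single read from them fits both genes. They lie on the minus strand at chr13:100161662-100161781 (mm10) in exon 11 of 16 of Naip2 and at chr13:100222994-100223113 in exon 9 of 14 of Naip5.

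Naip2 and Naip5, shared coding run: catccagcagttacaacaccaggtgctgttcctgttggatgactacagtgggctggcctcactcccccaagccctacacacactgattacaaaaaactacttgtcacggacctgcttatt

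The promoters of 2 members are shown, Nlrc4 because it was the member called between the fractions, and Pycard because its libraries did not overlap between the diets in CD45hi cells. Both are RefSeq sequences (GRCm38.p6) from 250 bases before to 50 bases after a start site, on the minus strand, at chr17:74459059-74459358 for Nlrc4 and chr7:127993818-127994117 for Pycard. Capitals mark the letters GAGGAA, the form searched here of the binding site of the myeloid factor PU.1, or their reverse complement. The window of Nlrc4 does not hold these exact letters. Other forms of the PU.1 site were not searched, so whether that window holds such a site was not tested. RefSeq held 12 promoters for 9 of the 10 members.

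Nlrc4: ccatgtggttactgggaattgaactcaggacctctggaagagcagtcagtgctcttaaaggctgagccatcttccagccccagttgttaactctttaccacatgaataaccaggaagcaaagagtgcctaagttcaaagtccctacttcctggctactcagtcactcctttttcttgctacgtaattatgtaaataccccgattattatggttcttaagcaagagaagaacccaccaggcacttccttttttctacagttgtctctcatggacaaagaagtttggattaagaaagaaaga

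Pycard: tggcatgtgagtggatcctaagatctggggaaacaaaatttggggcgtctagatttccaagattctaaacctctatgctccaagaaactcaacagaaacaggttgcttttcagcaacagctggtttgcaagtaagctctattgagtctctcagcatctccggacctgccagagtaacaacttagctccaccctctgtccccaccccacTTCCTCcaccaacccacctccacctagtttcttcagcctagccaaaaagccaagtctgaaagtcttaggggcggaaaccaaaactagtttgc

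GAGGAA occurred on either strand in 4 of the 12 member promoters (Casp1, Nlrp1b, Nlrp3 and Pycard) and in 28.3% of 32851 promoters of the same length. The letters searched for NF-κB were 1 form of its site, GGGA and TTTCC with 1 base of any kind between (0.411% of all promoters). Those for the interferon response were GAAA repeated after any 2 bases (3.44%), and those for STAT were TTCNNNGAA (8.3%). Each occurred in 0 of the 12. These matches are a description of the letters in those windows. Other forms of these sites were not searched, so a site of another form may be present.

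The CD45hi and CD45lo fractions were compared within each diet to ask in which fraction each gene is expressed more strongly. Nlrc4 was the member that passed the test of a difference beyond 1.5-fold, and it was higher in CD45hi cells on both diets. The other 9 members were detected in both fractions or, for Mefv, were near the limit of detection in CD45lo cells, and did not pass. Of all genes tested, 3.39% were called higher and 0.588% lower in CD45hi cells of CD-fed mice, and 4.01% and 1.17% in those of WD-fed mice, beside 1 of 10 members called higher and 0 lower on each diet. Unadjusted p was under 0.05 for 2 of 10 members on each diet, and for 14% of all genes on the CD and 17.9% on the WD. The members' median log2 fold change was 0.46 on the CD and 0.19 on the WD, where the median of all genes was 0.04 and 0.

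**Figure D1:**
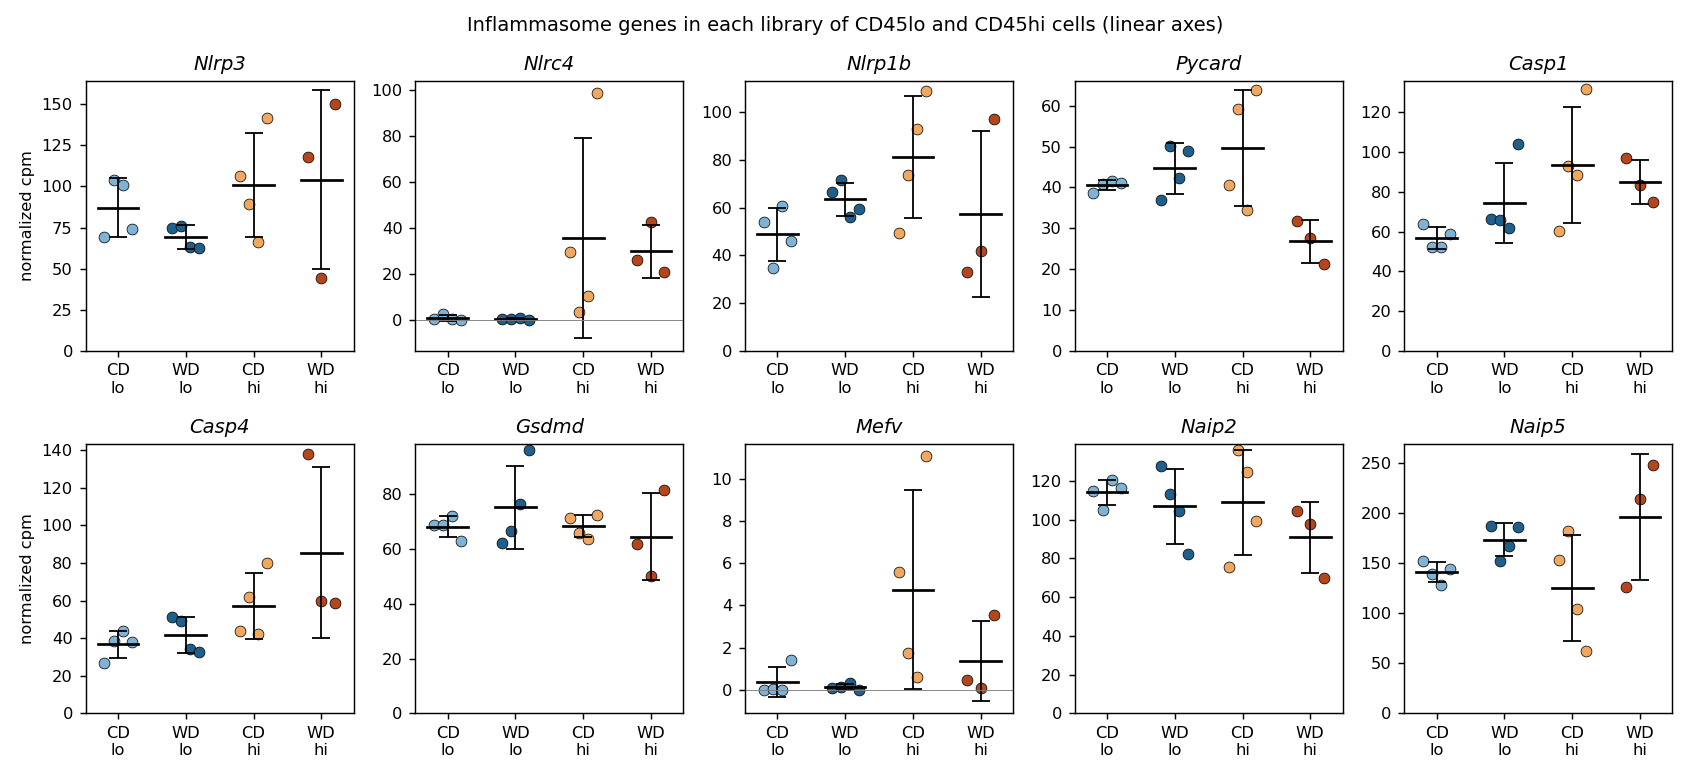
Normalized cpm (linear y axes, 1 panel per gene) of the 10 inflammasome genes in each library, as points, grouped on the x axis by diet and CD45 level. Horizontal lines are means and bars ± 1 SD over 4 libraries (3 for WD CD45hi), and bars that pass below 0 belong to groups in which 1 library was far above the rest. Nlrc4 was at most 2.70 cpm in CD45lo libraries and 3.23 to 98.7 cpm in CD45hi libraries.

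Nlrc4 (chr17:74425438-74459142, minus strand, mm10) encodes the protein that assembles with NAIPs after they bind flagellin or needle and rod proteins of bacterial secretion systems. Its levels were 29.4, 3.23, 10.6 and 98.7 cpm in CD CD45hi and 0.353, 2.70, 0.369 and 0.0567 cpm in CD CD45lo cells. They were 26.2, 42.7 and 20.7 cpm in WD CD45hi and 0.459, 0.371, 0.933 and 0 cpm in WD CD45lo cells. Every CD45hi library was above every CD45lo library on its diet, which held in this direction for 8.26% of all genes on the CD and 10% on the WD. The lowest CD45hi library and the highest CD45lo library, both CD replicate 2, were close to each other.

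The difference was 40.1-fold on the CD (log2 fold change 5.33, SE 1.18, FDR 0.0144, edgeR glmTreat) and 65.0-fold on the WD (6.02, SE 1.26, FDR 0.00841). The CD value rests on single libraries. Without CD CD45hi replicate 4 the log2 fold change was 4.03 (FDR 0.0658), without CD CD45lo replicate 1 it was 5.07 (FDR 0.0604), and without CD CD45lo replicate 3 it was 5.08 (FDR 0.0567), all above the limit of 0.05. Without CD CD45lo replicate 2 it rose to 7.03 (FDR 0.00571). On the WD it was 5.63 to 6.69 with each library left out in turn (FDR at most 0.0339), the highest being without WD CD45lo replicate 3. A replicate block by the number in the titles ended both calls (CD 5.42, FDR 0.0908, and WD 5.65, FDR 0.0631), and one by the number in the file names ended the CD call (5.42, FDR 0.105) but not the WD call (6.52, FDR 0.046). Leaving out both libraries that stood apart gave 4.03 on the CD (FDR 0.0635) and 6.11 on the WD (FDR 0.00863).

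The marker genes of other leukocytes also differed between the fractions. Neutrophil markers passed the same test as higher in CD45hi cells for 5 of 8 genes on each diet, monocyte markers for 5 and 3 of 7, and border-associated macrophage markers for 6 of 6 on both, while microglial markers were lower for 8 and 5 of 8. Of all genes, 3.39% were called higher and 0.588% lower on the CD, and 4.01% and 1.17% on the WD. The part of the cells with these markers in the Nlrc4 difference was not tested. The library with the highest Nlrc4, CD CD45hi replicate 4, had the highest monocyte sum (1051 cpm) and a neutrophil sum of 3108 cpm. The CD45hi library with the lowest Nlrc4, CD replicate 2, had the highest neutrophil sum (3392 cpm) and a monocyte sum of 679 cpm.

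**Figure D2:**
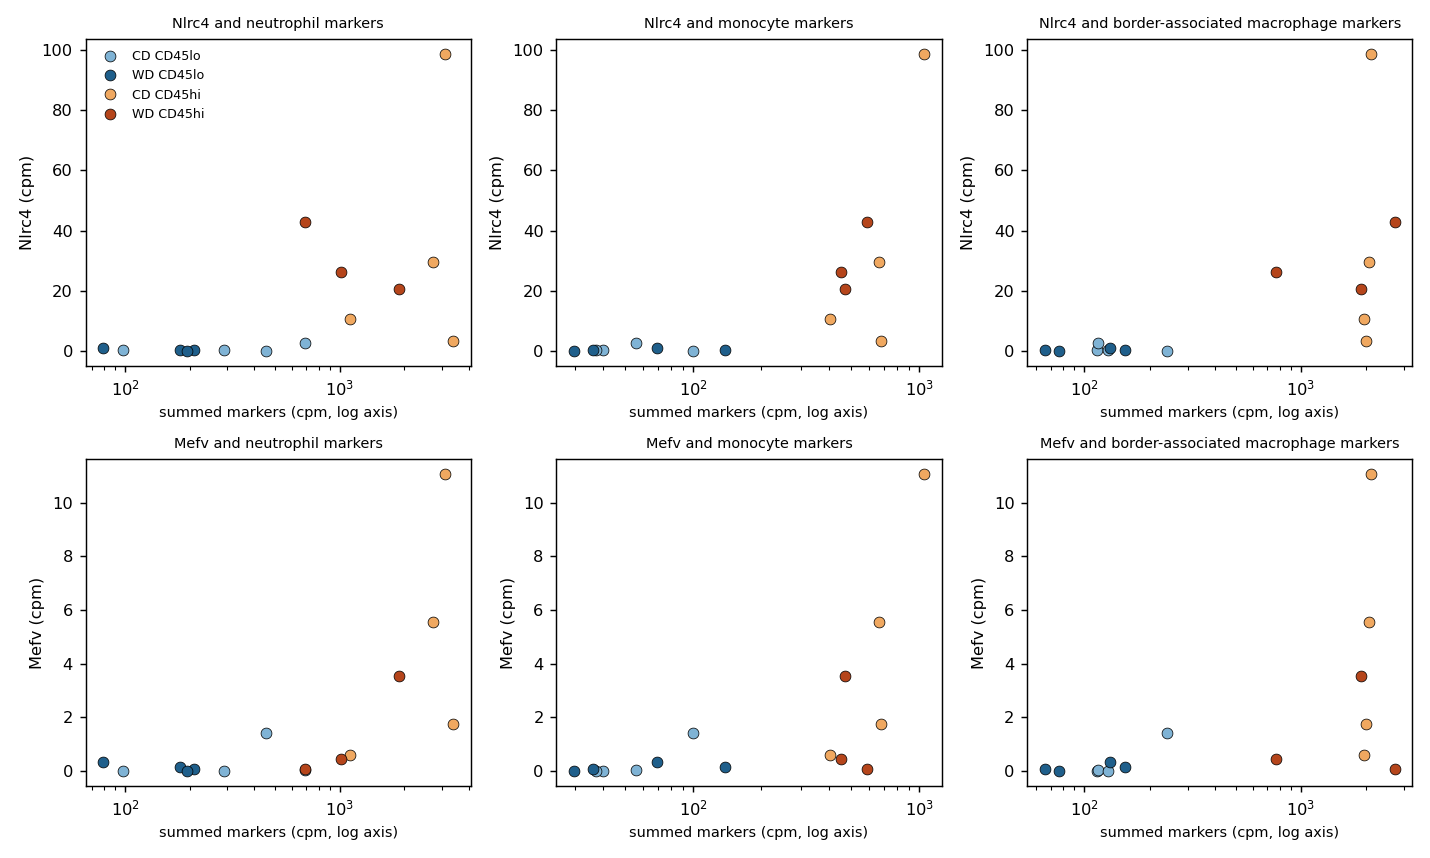
Normalized cpm of Nlrc4 (top row) and Mefv (bottom row) on linear y axes against the summed cpm of neutrophil, monocyte and border-associated macrophage markers on log x axes, 1 point per library, coloured by diet and CD45 level. CD45hi libraries lie to the right of CD45lo libraries in the monocyte and border-associated macrophage panels, and the point highest on both y axes is CD CD45hi replicate 4.

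Naip2 (chr13:100144063-100202092) and Naip5 (chr13:100211739-100246323), whose proteins bind the rod protein and flagellin and hand the signal to NLRC4, were high in both fractions. Naip2 was at 75.6, 135.9, 125 and 99.5 cpm in CD CD45hi and 115, 105, 120.3 and 116 cpm in CD CD45lo cells. In WD-fed mice it was at 104.5, 98.0 and 69.9 cpm in CD45hi and 128, 113, 104 and 82.0 cpm in CD45lo cells. The fractions overlapped on both diets, with log2 fold changes of -0.07 (SE 0.21, FDR 1, edgeR glmTreat) on the CD and -0.23 (SE 0.228, FDR 0.971) on the WD.

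Naip5 was at 153, 182, 104.6 and 62.1 cpm in CD CD45hi and 152, 139, 128 and 144 cpm in CD CD45lo cells. In WD-fed mice it was at 126, 214 and 248 cpm in CD45hi and 187, 152, 168 and 186 cpm in CD45lo cells. Here too the fractions overlapped, with log2 fold changes of -0.17 (SE 0.267, FDR 1, edgeR glmTreat) on the CD and 0.18 (SE 0.287, FDR 0.972) on the WD. CD CD45hi replicate 4, the highest library for Nlrc4, was the lowest for Naip5.

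Since reads can be divided wrongly within the family, the levels of Naip1, Naip2, Naip5 and Naip6 were also summed, a step added after the values were seen that leaves out Naip3. The sum was 358.8 ± 82.8 cpm (SD, n = 4) in CD CD45hi, 381 ± 12.2 (n = 4) in CD CD45lo, 485 ± 67.9 (n = 3) in WD CD45hi and 435.0 ± 7.96 (n = 4) in WD CD45lo cells. It ranged from 371.8 to 398.7 cpm in CD CD45lo and from 426 to 444.5 cpm in WD CD45lo libraries, which did not overlap. Among all single genes, 2.42% did not overlap between the diets in CD45lo cells, in either direction. The CD45hi libraries overlapped between the diets, with sums of 278 to 464 and 436 to 563 cpm. The sum itself was not tested between the diets. Within the sensor and its NAIPs, Nlrc4 made up a median of 12.96% (1.32 to 44.0%, n = 7) of the summed TPM of Nlrc4, Naip2 and Naip5 in CD45hi and 0.189% (0 to 1.42%, n = 8) in CD45lo libraries.

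Nlrp3 (chr11:59541568-59566956, plus strand), the sensor that responds to potassium efflux and many kinds of damage, differed little between the fractions. It was at 106, 89.2, 66.0 and 142 cpm in CD CD45hi and 69.1, 104, 101 and 74.2 cpm in CD CD45lo cells. In WD-fed mice it was at 118, 44.0 and 150.1 cpm in CD45hi and 74.4, 76.1, 63.1 and 62.35 cpm in CD45lo cells. The ranges overlapped on the CD, and on the WD 1 CD45hi library, replicate 2, was below all CD45lo libraries and the other 2 above them, and the log2 fold changes were 0.21 (SE 0.311, FDR 1, edgeR glmTreat) and 0.59 (SE 0.334, FDR 0.657).

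Nlrp1b (chr11:71153102-71230733, minus strand) encodes a sensor that is activated when its own N-terminal part is degraded. It was at 49.4, 73.8, 93.1 and 109 cpm in CD CD45hi and 54.0, 34.7, 60.8 and 45.9 cpm in CD CD45lo cells. In WD-fed mice it was at 33.2, 41.9 and 97.3 cpm in CD45hi and 66.7, 71.7, 56.1 and 59.55 cpm in CD45lo cells. CD CD45hi replicate 1 lay inside the CD45lo range, and of the WD CD45hi libraries 2 were below and 1 above all CD45lo libraries. The log2 fold changes were 0.73 on the CD (SE 0.326, FDR 0.622, edgeR glmTreat) and -0.14 on the WD (SE 0.352, FDR 0.982).

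Mefv (chr16:3707218-3718097, minus strand) encodes pyrin, which responds to inactivation of RhoA by bacterial toxins. It was at 5.57, 1.74, 0.616 and 11.1 cpm in CD CD45hi and 0, 0.0519, 0 and 1.42 cpm in CD CD45lo cells. With the WD it stood at 0.470, 0.0671 and 3.53 cpm in CD45hi and 0.0656, 0.148, 0.329 and 0 cpm in CD45lo cells. In each CD45lo group 3 of 4 libraries held 3 counts or fewer, and the group ranges overlapped on both diets. The log2 fold changes of 3.66 (SE 1.66, FDR 0.335, edgeR glmTreat) and 3.21 (SE 1.71, FDR 0.369) did not pass the test, and with 1 library left out in turn they ran from 2.82 to 7.48 on the CD and from 0.88 to 4.09 on the WD.

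Pycard (chr7:127989708-127993867, minus strand) encodes ASC, the adaptor that links sensors to caspase-1. It was at 40.7, 59.2, 34.6 and 63.9 cpm in CD CD45hi and 38.7, 40.7, 41.55 and 41.0 cpm in CD CD45lo cells. WD-fed mice had 31.7, 27.6 and 21.2 cpm in CD45hi and 37.0, 50.2, 42.4 and 49.0 cpm in CD45lo cells. The CD groups overlapped, with a log2 fold change of 0.29 (SE 0.264, FDR 1, edgeR glmTreat). Every WD CD45hi library was below every WD CD45lo library, as for 13.4% of all genes in this direction (8.22% on the CD, none of them a member), and the log2 fold change of -0.73 (SE 0.29, FDR 0.464) did not pass. GENCODE M21 lists a gene on the opposite strand that overlaps this locus, Gm45205. The counting, RSEM at default settings, did not use the strand, so the strand did not separate reads of the 2 genes. The expected counts of Pycard were fractional in 0 of 15 libraries. Whether exons of the 2 genes overlap was not checked.

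Casp1 (chr9:5298517-5307265, plus strand), the protease of the complex, was at 60.55, 92.9, 88.4 and 132 cpm in CD CD45hi and 64.1, 52.25, 52.2 and 58.6 cpm in CD CD45lo cells. On the WD the levels were 96.9, 83.3 and 75.1 cpm in CD45hi and 66.2, 65.7, 61.65 and 104 cpm in CD45lo cells. On the CD 3 of the 4 CD45hi libraries were above all CD45lo libraries, and on the WD 1 CD45lo library, replicate 4, was above all CD45hi libraries. The log2 fold changes were 0.72 (SE 0.245, FDR 0.579, edgeR glmTreat) and 0.19 (SE 0.262, FDR 0.972).

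Casp4 (chr9:5308828-5336783, plus strand), the neighbour of Casp1 and the lipopolysaccharide sensor of the noncanonical branch, was at 43.8, 62.0, 42.5 and 80.15 cpm in CD CD45hi and 26.9, 38.4, 43.95 and 38.2 cpm in CD CD45lo cells. With the WD it stood at 138, 59.9 and 58.8 cpm in CD45hi and 51.4, 48.9, 34.4 and 32.65 cpm in CD45lo cells. Every WD CD45hi library was above every WD CD45lo library, as for 10% of all genes in this direction, and the CD groups overlapped. The log2 fold change was 0.63 on the CD (SE 0.32, FDR 0.746, edgeR glmTreat) and 1.03 on the WD (SE 0.342, FDR 0.236), and neither passed. The highest WD value came from replicate 1, the library that stood apart, and across the libraries left out in turn the WD value was 0.51 to 1.24.

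Gsdmd (chr15:75862327-75867408, plus strand), the pore-forming substrate of both caspases, had the narrowest spread of the members in CD CD45hi cells. It was at 71.4, 66.0, 63.8 and 72.4 cpm in CD CD45hi and 68.8, 68.6, 72.2 and 63.1 cpm in CD CD45lo cells. WD-fed mice had 62.0, 50.05 and 81.7 cpm in CD45hi and 62.0, 66.5, 76.4 and 96.1 cpm in CD45lo cells. The groups overlapped on both diets, with log2 fold changes of 0.00 (0.004, SE 0.209, FDR 1, edgeR glmTreat) and -0.22 (SE 0.227, FDR 0.975).

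**Figure D3:**
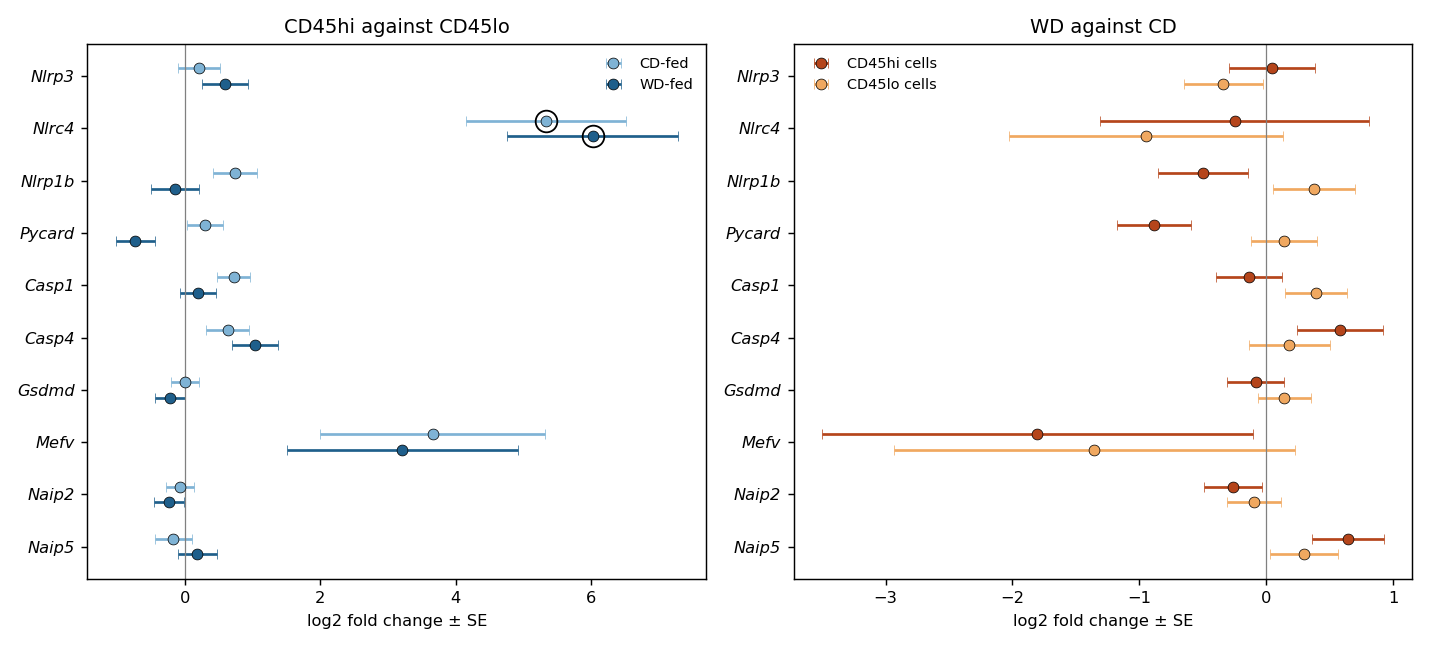
Fitted log2 fold change ± SE (x axis) of each inflammasome gene (y axis) between CD45hi and CD45lo cells on each diet (left) and between WD and CD in each fraction (right). Circled points passed the test. The 2 circled points are Nlrc4 at 5.33 and 6.02, and none is circled in the diet panel.

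Levels of different genes were set side by side as TPM, which divides by transcript length. TPM was not TMM-normalized, so it is used here to order genes within a fraction. In CD45lo libraries (n = 8) the median TPM was 89.3 for Casp1, 81.2 for Gsdmd, 79.2 for Casp4, 63.9 for Pycard, 58.3 for Naip5, 48.3 for Naip2, 39.1 for Nlrp3, 26.5 for Nlrp1b, 0.195 for Nlrc4 and 0.035 for Mefv. Neighbours in this order overlapped in range with the exception of Nlrp1b, whose lowest library had 15.6 TPM, and Nlrc4, whose highest had 1.33 TPM. Effector and adaptor genes therefore held the 4 highest medians in this fraction.

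In CD45hi libraries (n = 7) the median TPM was 92.1 for Casp1, 87.2 for Casp4, 56.8 for Gsdmd, 43.6 for Nlrp3, 41.8 for Naip5, 38.7 for Pycard, 29.3 for Nlrp1b, 27.6 for Naip2, 9.34 for Nlrc4 and 0.86 for Mefv. All neighbours overlapped in range. With both diets together, the effectors again held the 3 highest medians, while Pycard was the sixth here and the fourth in CD45lo cells. On the CD the CD45hi median of Pycard was 55.2 TPM, between those of Gsdmd (58.6) and Nlrp3 (42.9). On the WD it was 28.1 TPM, below that of Nlrp3 (43.6), and Naip5 (53.8) was above Gsdmd (50.25). Scale matters for Gsdmd, which was at 39.2 to 67.7 TPM in CD45hi and 76.2 to 105.8 TPM in CD45lo libraries without overlap, although its TMM-normalized cpm overlapped. The TMM factors were 0.862 to 0.967 in CD45hi and 1.08 to 1.11 in CD45lo libraries. Their part in the difference between the scales was not tested.

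**Figure D4:**
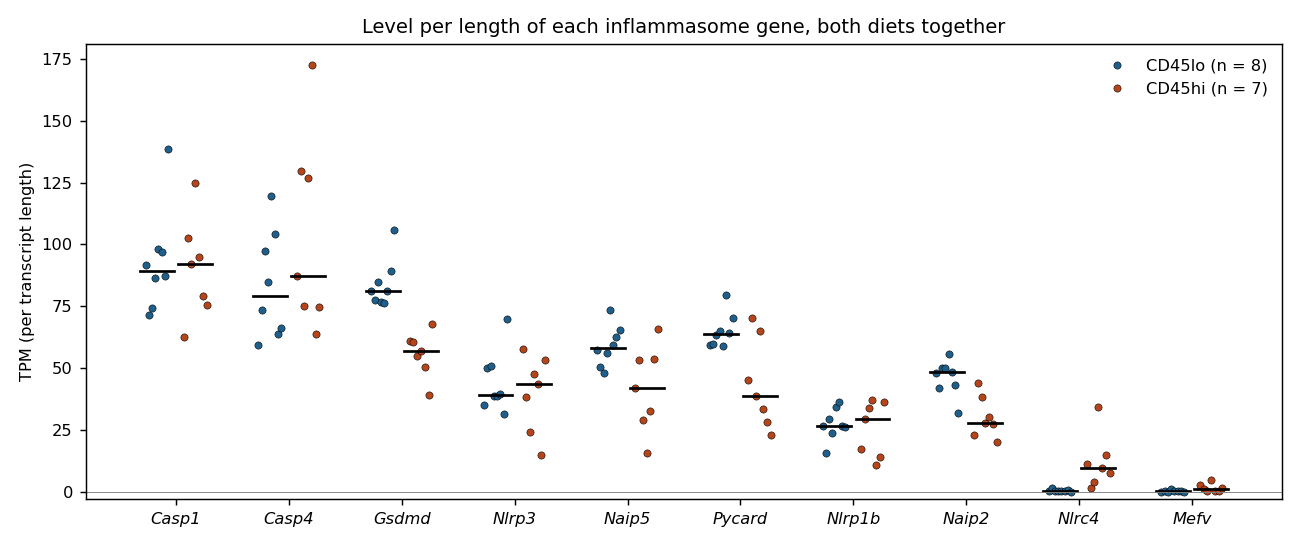
TPM (linear y axis) of each inflammasome gene in the 8 CD45lo and 7 CD45hi libraries, both diets together, as points, with the median as a line. Genes on the x axis are ordered by their CD45hi median, from Casp1 at 92.1 TPM to Mefv at 0.86 TPM.

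Replicates differed more among CD45hi than among CD45lo libraries. The SD of log2 cpm within a group had a median over the 10 members of 0.46 in CD CD45hi and 0.52 in WD CD45hi, against 0.22 in CD CD45lo and 0.27 in WD CD45lo cells. The medians over all genes tested were larger, at 0.89, 0.91, 0.35 and 0.40 in the same order. Pycard and Gsdmd had the smallest SDs in CD CD45lo cells, at 0.04 and 0.08, and Nlrc4 and Mefv the largest in CD CD45hi cells, at 2.08 and 1.73.

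The diets were compared within each fraction to ask whether a long-term WD changed the expression of these genes. In CD45hi cells 0 of 10 members passed the edgeR quasi-likelihood F test (FDR under 0.05), where 0.254% of all genes did. The unadjusted p was under 0.05 for 2 of 10 members, Pycard and Naip5, and for 17.6% of all genes. DESeq2 called 1 member, Pycard, and 6.88% of all genes. The members' median log2 fold change was -0.19, beside -0.02 for all genes.

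Pycard was lower in WD CD45hi than in CD CD45hi cells in every library, at 21.2 to 31.7 against 34.6 to 63.9 cpm. The diets' CD45hi libraries did not overlap, in either direction, for 5.77% of all genes, and among the members for Pycard alone. Its log2 fold change was -0.89 (SE 0.292, FDR 0.145, edgeR glmQLFTest), which did not pass, and DESeq2 gave -0.87 with an FDR of 0.0238. Over the other settings the FDR was as high as 0.86, and the log2 fold change -1.02 to -0.74. In the same CD45hi libraries the neutrophil marker sum was 1119 to 3392 cpm on the CD and 693 to 1884 cpm on the WD. The monocyte sum was 402 to 1051 and 452 to 584 cpm. For border-associated macrophages it was 1964 to 2106 and 765 to 2715 cpm, and for microglia 5670 to 6800 and 6443 to 6935 cpm. The part of these cells in the Pycard values was not tested.

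Naip5 had a log2 fold change of 0.65 in WD against CD CD45hi cells (SE 0.286, FDR 0.254, edgeR glmQLFTest), with 1 of 3 WD libraries, replicate 1, inside the CD range. Casp4 was at 58.8 to 138 cpm on the WD and 42.5 to 80.15 cpm on the CD (0.58, SE 0.342, FDR 0.392). For the other 7 members the log2 fold change was -1.80 (Mefv) to 0.05 (Nlrp3), with FDRs of 0.494 to 0.967. Nlrc4, with a value of -0.25 (SE 1.06, FDR 0.938), was 1.14 when both libraries that stood apart were left out (FDR at least 0.629 over all settings), so its direction between the diets was not fixed by these libraries.

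In CD45lo cells no member passed, with an FDR of 1 for each (edgeR glmQLFTest), and 0% of all genes did. No member had an unadjusted p under 0.05, against 0.822% of all genes, and DESeq2 called none of the 10 and 0.0267% of all genes. The members' median log2 fold change was 0.14, beside 0.00 for all genes (0.004). Casp1 had the largest positive value, 0.39 (SE 0.244), and Mefv the most negative, -1.35 (SE 1.58), on a handful of counts.

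Naip5 was the member whose CD45lo libraries did not overlap between the diets, as for 2.42% of all genes in either direction. It was at 128 to 152 cpm in CD and 152.4 to 187 cpm in WD libraries, where the nearest pair differed by less than 1 cpm. Its log2 fold change was 0.30 (SE 0.267, FDR 1, edgeR glmQLFTest).

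The interaction of diet and CD45 level asks whether the gap between fractions differed between diets. In edgeR glmQLFTest 0 of 10 members passed, as did 0.00668% of all genes, a single gene. An unadjusted p under 0.05 was found for 1 member and 10.1% of all genes, and DESeq2 called no member and 1.26% of all genes. That 1 member was Pycard, with an interaction of -1.03 on the log2 scale (SE 0.391, FDR 0.412). Nlrp1b followed with -0.88 (SE 0.481, FDR 0.57). For Nlrc4 the difference between the diets in its CD45hi to CD45lo ratio was 0.70 (SE 1.49, FDR 0.929), so the larger fold on the WD is within the error.

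The wider pathway was described by 4 lists with 47 genes, of which 45 passed the filter and Nlrp6 and Nlrp10 did not. In the comparison of fractions 5 of 45 were called higher and 0 lower in CD45hi cells on each diet (edgeR glmTreat). Of all genes tested, 3.39% were called higher and 0.588% lower on the CD, and 4.01% and 1.17% on the WD. The median log2 fold change of the 45 was 0.09 on the CD and 0.15 on the WD. Of other sensors 1 of 7 was called on the CD and 0 on the WD, of upstream and licensing genes 0 of 16 on either, of genes listed as restraint 2 and 3 of 12, and of outputs and pyroptosis genes 2 of 10 on both. The list names are labels, and whether a gene listed as restraint holds the pathway back in these cells was not tested. The cytokine gene Il1b and its antagonist Il1rn were among those called on both diets.

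Il1b, whose protein is the substrate of caspase-1, was at 839, 541, 526 and 1089 cpm in CD CD45hi and 10.9, 5.55, 12.7 and 22.5 cpm in CD CD45lo cells. On the WD the levels were 644, 426 and 379.8 cpm in CD45hi and 8.65, 9.94, 6.09 and 7.42 cpm in CD45lo cells. The groups were far apart on both diets, by 58.0-fold on the CD (log2 fold change 5.86, SE 0.404, FDR 1.26e-07, edgeR glmTreat) and 60.2-fold on the WD (5.91, SE 0.414, FDR 2.1e-07). Il1rn, the receptor antagonist that blocks interleukin-1, was at 9.79 to 44.0 cpm in CD CD45hi and 0.647 to 2.83 cpm in CD CD45lo cells (3.93, SE 0.699, FDR 0.00295), and at 26.8 to 62.1 against 0.459 to 4.01 cpm on the WD (4.78, SE 0.744, FDR 0.000789).

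Other genes of the pathway with known links to the members did not pass on either diet, and these were chosen after their values were seen. Il18, which caspase-1 also cleaves, had log2 fold changes of -0.09 (SE 0.83, FDR 1, edgeR glmTreat) and 0.64 (SE 0.889, FDR 0.87), and Il1a had 0.33 (SE 0.187, FDR 1) and 0.18 (SE 0.201, FDR 0.994). The DNA sensor gene Aim2 had -0.13 (SE 0.218, FDR 1) and -0.17 (SE 0.236, FDR 0.989), and Nek7, whose protein binds NLRP3, -0.31 (SE 0.231, FDR 1) and -0.64 (SE 0.254, FDR 0.564).

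Among genes listed as restraint, Tnfaip3, which encodes the ubiquitin-editing enzyme A20, was at 437 to 592 cpm in CD CD45hi and 125 to 236 cpm in CD CD45lo cells (log2 fold change 1.47, SE 0.201, FDR 0.00216, edgeR glmTreat). On the WD it was at 414 to 691 against 160 to 217 cpm (1.53, SE 0.213, FDR 0.00209). Pstpip1, whose protein binds pyrin, was at 5.05 to 37.3 against 2.24 to 3.63 cpm on the CD (2.64, SE 0.655, FDR 0.0413) and at 25.5 to 52.1 against 0.758 to 5.90 cpm on the WD (3.45, SE 0.698, FDR 0.00842). Its CD call was lost without any 1 of CD CD45hi replicates 3 and 4, of the 4 CD CD45lo libraries, or of WD CD45lo replicates 2 and 3, with FDRs of 0.0564 to 0.137, and it was also lost without both libraries that stood apart (2.17, FDR 0.121).

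Ptpn22, a phosphatase gene, was called on the WD, at 14.7, 70.1 and 99.4 cpm in CD45hi (replicates 3, 1 and 2) and 3.64 to 6.16 cpm in CD45lo cells (3.67, SE 0.623, FDR 0.00207, edgeR glmTreat). On the CD its fractions overlapped (2.12, SE 0.567, FDR 0.0737). Nlrp12, a sensor gene of myeloid cells, was called on the CD, at 7.99, 52.7, 3.61 and 10.1 cpm in CD45hi and 0, 0.0519, 0 and 0.341 cpm in CD45lo libraries (7.44, SE 1.8, FDR 0.0314). Of its 4 CD45lo libraries 3 were at 3 counts or fewer, so the fold depends on few counts, and the call was lost without CD CD45hi replicate 2 (6.08, FDR 0.112) or without CD CD45lo replicate 1, 2 or 3 (FDR 0.0971 to 0.114). On the WD 2 of 3 CD45hi libraries had none and the third 1.84 cpm, and all 4 CD45lo libraries had 0 counts.

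**Figure D5:**
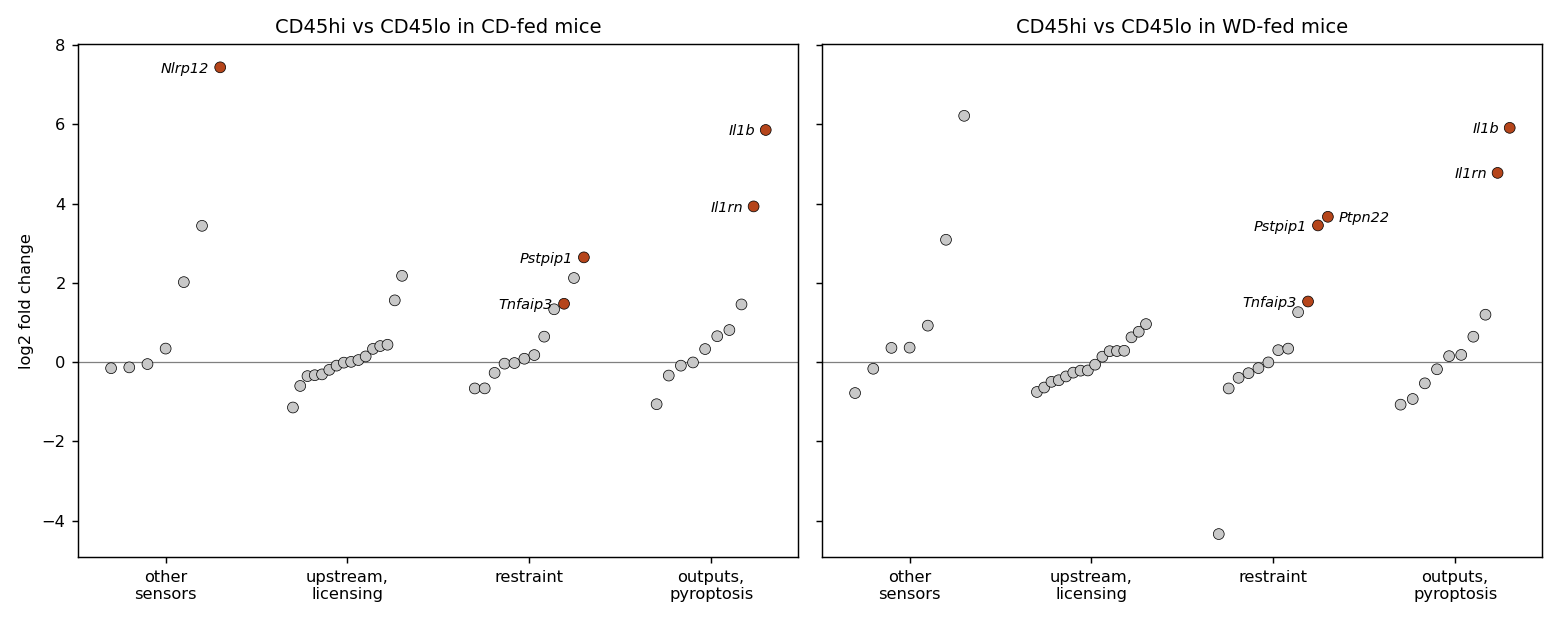
Log2 fold change (y axis) between CD45hi and CD45lo cells of the 45 other pathway genes tested, by list (x axis), in CD-fed (left) and WD-fed (right) mice. Filled red points with names passed the test, 5 on each diet, and grey points did not. Il1b is at 5.86 and 5.91.

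Between the diets 0 of the 45 pathway genes passed in either fraction (edgeR glmQLFTest), beside 0.254% of all genes in CD45hi and 0% in CD45lo cells. In CD45hi cells 7 of 45 had an unadjusted p under 0.05, beside 17.6% of all genes. DESeq2 called 4 of 45, beside 6.88% of all genes, and all 4 were lower on the WD, namely Tifa (-0.74, FDR 0.0443), Irf1 (-1.62, FDR 0.0165), Serpinb1a (-5.74, FDR 0.00188) and Ninj1 (-1.76, FDR 0.0286). Serpinb1a was at 0.440 to 10.1 cpm on the CD and at most 0.335 cpm on the WD, where 2 of 3 libraries held 3 counts or fewer. Irf1 overlapped between the diets, at 33.45 to 140.3 cpm on the CD and 11.1 to 46.6 cpm on the WD. In CD45lo cells none had an unadjusted p under 0.05 and DESeq2 called none, beside 0.822% and 0.0267% of all genes. The interaction was passed by 0 of 45, beside 0.00668% of all genes. Of the 45, 3 had an unadjusted p under 0.05 and DESeq2 called none, beside 10.1% and 1.26% of all genes.

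For each member the genes with the most similar levels over the 7 CD45hi libraries were sought among 7258 genes with a mean of at least 10 cpm and a log2 range of at least 1 there. The closest for Nlrc4 were Fbxo25, Prkaca and Smim19 (Pearson's r 0.983, 0.975 and 0.974), and for Pycard Kif18a (0.982). The closest was Gm26809 for Casp1 (0.991), Cox6a1 for Casp4 (0.988), Rassf1 for Naip5 (0.993) and Zfp935 for Nlrp3 (0.962). Mefv, with a mean below 10 cpm, and Gsdmd and Naip2, with a log2 range below 1, were outside the genes searched and could not appear. None of the remaining members was among the 3 nearest genes of any other member. With 7 libraries and this many genes such values are a description, and the libraries share their sort and their depth.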

How the data were processed

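RNA-seq was measured in 15 libraries of sorted brain myeloid cells. The authors trimmed 75 bp paired-end reads at Phred 30 and quantified them with RSEM 1.2.12 and Bowtie2 on mm10, after bcl2fastq 2.18.0.12 per the labels, and deposited for each gene an expected count, which is not normalized, and a TPM value. RSEM ran at its default settings, which do not use the strand. The annotation release and which library ran on which sequencer are not given in the sources used here, so a sequencer batch cannot be told apart from the groups. Expected counts were rounded, the filter asked for 1 cpm or more in 2 of the libraries, and edgeR 4.0.16 (R 4.3.3, TMM, quasi-likelihood in its earlier form) fitted all 15 libraries in 4 groups taken from the titles. CD45hi and CD45lo cells were compared with glmTreat at 1.5-fold, and diets and their interaction with glmQLFTest. Adjustment was by Benjamini-Hochberg (FDR) over 14967 genes, and called means an FDR under 0.05. The SE is the size of the log2 fold change over the square root of F. The fit was tested on simulated data. No 2 replicates had identical counts (21 pairs). The floor of 3 counts covers counting error only. Log2 cpm used a prior count of 2.

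The members and lists were chosen with earlier results of these data known. The text names all members, the pathway genes called without overlap (and others, chosen after their values were seen), and the 3 genes most like each member. Alternatives were DESeq2 1.42.0 and its size factors, the edgeR 4 form, other filters, fits of the compared groups alone, another fold threshold, replicate blocks, and leaving out libraries. Coordinates are from GENCODE M21. RefSeq promoters matched 9 members by symbol.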

Additional observations from a re-analysis of the deposited data

Results flagged for a closer look

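In 3 of 30 groups of 4 libraries 1 library of a member lay far from the other 3 by Dixon's criterion. For normally distributed values 1 in 20, or 1.5 groups, would be flagged. The criterion was applied to cpm without logs, and Nlrc4 and Mefv had few counts in most CD45lo libraries. The rate of 1 in 20 may therefore not hold here. Nlrc4 reached 2.70 cpm in CD CD45lo replicate 2, where the other 3 libraries were at 0.0567 to 0.369 cpm. Mefv reached 1.42 cpm in CD CD45lo replicate 4, where the others were at 0 to 0.0519 cpm. Casp1 reached 104.1 cpm in WD CD45lo replicate 4, where the others were at 61.65 to 66.2 cpm.

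The summed levels of 4 marker groups are given for each of these libraries. Over all 8 CD45lo libraries the sums were 11950 to 15260 cpm for microglia, 79.0 to 690.0 cpm for neutrophils, 29.6 to 138.7 cpm for monocytes and 65.6 to 241.7 cpm for border-associated macrophages. In the same order they were 14550, 690.0, 56.0 and 115.3 cpm in the library with the high Nlrc4. The library with the high Mefv had 14880, 456.2, 99.2 and 241.7 cpm. In the library with the high Casp1 they were 11950, 194.8, 29.6 and 76.5 cpm. The part of other cells in these values was not tested.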

How the results depend on the processing

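The call of Nlrc4 between the fractions was lost under a replicate block by title number on the CD (5.42, FDR 0.0908) and the WD (5.65, FDR 0.0631), and by the number in the file names on the CD (5.42, FDR 0.105) but not on the WD (6.52, FDR 0.046). The Pstpip1 call on the CD (2.29, FDR 0.129 and 0.152) and the Ptpn22 call on the WD by title number (3.22, FDR 0.0777) were lost too, and the Pstpip1 call also in the 2 groups alone (2.65, FDR 0.0646). The members called fell from 1 to 0 under both blocks on the CD and under the title block on the WD. They also fell to 0 on the CD without both libraries that stood apart. The count stayed at 1 under the file-name block on the WD and in the 2 groups alone on the CD. The numbers share no stated animal. The file-name numbers pair 4 CD45hi with 4 CD45lo libraries on the CD and 3 with 3 on the WD. The report's fit had no block, so it did not allow for fractions that come from 1 mouse. The deviations of same-numbered libraries correlated at 0.01 to 0.069 on the CD under both numberings. On the WD they correlated at 0 to 0.013 by file name and at -0.022 to -0.004 by title. The blocks moved the median of all genes to -0.215 on the CD and -0.256 and -0.249 on the WD. The cause was not tested for any change given here. Without a fold threshold, 1202 genes (595 in the report's fit) and 11 pathway genes (5) were called between the fractions on the CD and 1365 genes (775) on the WD. The blocks called 398 and 353 genes on the WD, with 89.7 and 90.7% of them higher in CD45hi cells where the report's fit had 77.4%, and 65.7% without both libraries. Between the diets in CD45hi cells 38 genes were called, but 1030 by DESeq2 (with 1 member and 4 pathway genes), 252 by the edgeR 4 form, 69 with 1 cpm in 4 libraries, 290 without both libraries, 2 with the block, 1 with a 1.5-fold threshold and 0 with the 2 groups alone. The share higher on the WD was 23.7% in the report's fit, 63.9% in the edgeR 4 form and 41.1% in DESeq2. In CD45lo cells DESeq2 called 4 genes (0), and for the interaction 188 (1), with 0 by the edgeR 4 form, 0 with the block and 3 without both libraries. With each library left out in turn, the genes called ranged from 412 to 705 (CD fractions), 513 to 920 (WD fractions), 1 to 286 (diets, CD45hi), 0 to 0 (diets, CD45lo) and 0 to 6 (interaction), the members called on the CD from 0 to 1, and the pathway genes called from 3 to 7, 5 to 6 and 0 to 1 in the first 3.

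No member that changed sign was called. On the CD, Gsdmd was -0.011 (no filter), -0.003 (1 cpm in 4 libraries) and -0.022 (without both libraries), and Naip5 was 0.059 (without both). On the WD, Nlrp1b was 0.13 (without both). Between diets, Casp1 was 0.019 in CD45hi (block), Nlrc4 1.14 in CD45hi (without both), Mefv 0.39 in CD45lo (block) and the interaction of Mefv 0.79 (without both). Leaving out single libraries, signs changed on the CD for Gsdmd (-0.03 to 0.037), Naip2 (-0.19 to 0.074) and Naip5 (-0.40 to 0.058), and on the WD for Nlrp1b (-0.76 to 0.13) and Naip5 (-0.024 to 0.42). Between diets in CD45hi they changed for Nlrp3 (-0.32 to 0.41), Nlrc4 (-0.63 to 1.05), Casp1 (-0.30 to 0.078) and Gsdmd (-0.29 to 0.071). In CD45lo they changed for Nlrc4 (-1.62 to 0.79), Mefv (-2.24 to 2.46) and Naip2 (-0.19 to 0.012), and for the interaction of Mefv (-4.26 to 0.43), Nlrc4 (-1.02 to 2.00) and Casp4 (-0.13 to 0.61). Other fold changes of members kept direction and side of the threshold in 434 of 448 fits under other settings and 723 of 750 with 1 library left out.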
